A study of Mus musculus with 6 samples.

Results

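The lysosome was described here through 50 genes for its enzymes, its membrane proteins, its proton pump and the transcription factors that control it. The members were the rows of the deposited gene table whose symbol matched a list of named lysosomal genes, and the rule for membership used names alone, although the list was drawn up with earlier results of these data known. All 50 symbols were found among the 60832 genes of the table, and all 50 passed the filter on low counts that left 15474 genes for testing. RNA had been sequenced from cells labelled as primary liver sinusoidal endothelial cells (LSECs), which line the liver's capillaries. There were 3 libraries from mice with bevacizumab-sensitive and 3 from mice with bevacizumab-resistant liver xenografts of HCT116 cells, a line from a human colorectal carcinoma.

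Bevacizumab is an antibody against vascular endothelial growth factor A. In the study's methods, resistant xenografts were raised under bevacizumab at 10 mg/kg for 7 weeks (42 days in its results) and control mice received IgG. The same methods list male BALB/c nude mice of 4 to 6 weeks, which lack a thymus and so most T cells but keep macrophages and neutrophils. The strain is not stated in the labels of these libraries. All 6 libraries came from host cells captured with anti-CD146 beads and cultured for 24 h, so capture and culture were shared by both groups. How human tumour reads were kept apart from mouse reads is not given in the sources used here.

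Lysosomes are acidic organelles in which proteases, glycosidases, lipases and sulfatases break down material taken up from outside the cell or delivered by autophagy. A proton pump, the vacuolar ATPase, keeps their inside acidic, and heavily glycosylated membrane proteins line the limiting membrane. LSECs and Kupffer cells, the resident macrophages of the liver, are both known for a high capacity to take up and degrade blood-borne material. Many lysosomal genes carry a motif near their start site, the CLEAR element, which the transcription factors TFEB, TFE3 and MITF can bind. The core of that motif is an E-box.

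The promoters were read first, because the transcription factors are themselves members of the list. RefSeq promoter windows (GRCm38.p6, from 250 bases before to 50 bases after a start site, 300 bases in all) were matched by symbol for 43 of the 50 members. Npc1, Ctsh, Galns, Ctsb, Atp6v0d2, Ctse and Asah1 had no entry. The letters CACGTG were found on either strand in a window of 16 of the 43 members (37.2%), against 11.6% of the 10663 tested genes with an entry and 8.09% of all 27025 genes with one. The longer core TCACGTG was present in 14 members (32.6%, against 6.86% of tested genes), and TCACGTGA in 7 members (16.3%, against 2.17%). These 3 motifs are nested, so every match to a longer motif is also counted for the shorter ones. A match describes letters in a window and does not show that a factor was bound there.

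The 7 members with TCACGTGA were Ctsa, Ctsd, Gla, Cln3, Mcoln1, Atp6v0d1 and Atp6v1a. The windows of 30 bases around that motif are shown because they hold the longest shared core of the list. Capitals mark the letters of the searched motifs, including a further match cut off by the end of a window, each sequence is written 5′ to 3′ on the strand of its gene, and the coordinates are those of the printed bases.
Ctsa, chr2:164833749-164833778, + strand: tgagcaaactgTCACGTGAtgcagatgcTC
Ctsd, chr7:142387908-142387937, - strand: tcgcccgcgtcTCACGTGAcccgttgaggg
Gla, chrX:134601182-134601211, - strand: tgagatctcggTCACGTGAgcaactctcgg
Cln3, chr7:126583340-126583369, - strand: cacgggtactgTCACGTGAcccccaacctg
Mcoln1, chr8:3500462-3500491, + strand: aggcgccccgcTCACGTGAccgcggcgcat
Atp6v0d1, chr8:105566050-105566079, - strand: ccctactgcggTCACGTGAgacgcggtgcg
Atp6v1a, chr16:44139373-44139402, - strand: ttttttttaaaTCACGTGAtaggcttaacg

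In these windows the E-box began between 3 bases (Atp6v0d1) and 194 bases (Gla) before the RefSeq start site. In the GENCODE M21 annotation the windows of Gla and Atp6v0d1 lay upstream of the gene, that of Atp6v1a in an intron, and those of Ctsa, Ctsd, Cln3 and Mcoln1 overlapped the untranslated part of an annotated exon. Lamp1, for the most abundant glycoprotein of the lysosomal membrane among the members, had no TCACGTGA but had 4 E-boxes, which began 61, 45, 28 and 15 bases before its start site. Its 100 bases upstream of the start site are shown because no other member had as many matches.
Lamp1, chr8:13159061-13159160, + strand: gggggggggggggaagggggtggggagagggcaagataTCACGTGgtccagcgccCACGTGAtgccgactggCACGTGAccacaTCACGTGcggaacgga

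**Figure D1:**
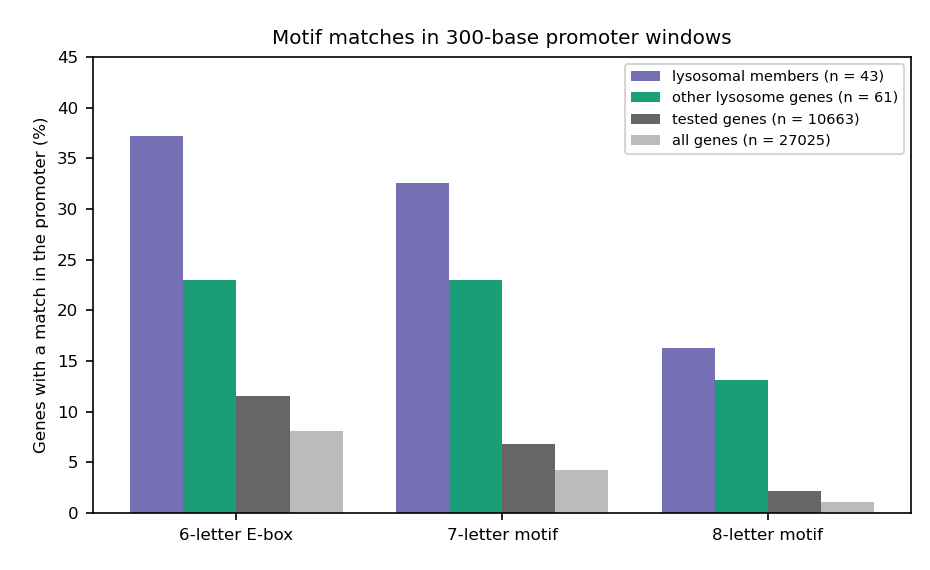
Share of genes with a motif match in a promoter window (y axis, %), for the 6-letter E-box and the longer 7-letter and 8-letter motifs that contain it (x axis), in 43 lysosomal members, 61 other lysosome genes, 10663 tested genes and all 27025 genes with a window. The members have the highest bar for each motif, at 37.2%, 32.6% and 16.3%.

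Levels and differences were set side by side for members with and without the motif. The 14 members with TCACGTG had a median level of 62.7 FPKM (fragments scaled to gene length and library total) and the 29 members with a window but no TCACGTG had 69.0 FPKM. Their median log2 fold changes between the groups, described further on, were 0.07 and 0.16. Sensitive replicate 2, a library that stood apart as described below, was the lowest for 3 of the 14 and 16 of the 29. Its part in the 2 medians was not tested.

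The libraries held between 17599326 and 20726684 counts on genes, and 3 counts corresponded to 0.145 to 0.170 counts per library scaled to a common total (CPM). Sensitive replicate 2 stood apart. Its log2 CPM correlated with the other libraries at r = 0.860 to 0.901 across genes, where the other 10 pairs reached 0.954 to 0.974, so values whose direction turned without it are given both ways. The labelled cell type was checked against marker genes. The study's methods describe the LSECs as CD146-positive at high purity by flow cytometry, which reads protein rather than RNA. In every library, macrophage and Kupffer cell genes were far more abundant than LSEC genes: 18 macrophage markers summed to 24864 to 37912 CPM, while 12 LSEC markers summed to 659 to 1241 CPM and 13 pan-endothelial markers to 82.0 to 528 CPM. Clec4f, which marks Kupffer cells, had 34593 to 85790 counts per library, and the LSEC markers Stab2 and Clec4g had 576 to 2936 and 16 to 118 counts. Single genes of the lists overlapped in level. They ran from 246 to 209790 counts per library among the macrophage markers and from 16 to 15901 among the LSEC markers. Neutrophil markers ranged most widely, from 197 to 6327 CPM over 11 genes. The lysosomal values are therefore those of the mixed RNA of each library. In such bulk samples fewer cells of a type and less RNA per cell cannot be told apart.

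The first question was how much of each library the lysosomal genes took up. They held 6.40, 7.72 and 7.60% of all counts in sensitive replicates 1, 2 and 3, and 6.32, 8.59 and 7.84% in resistant replicates 1, 2 and 3. The means were 7.24% ± 0.728 (SD, n = 3) and 7.58% ± 1.16 (SD, n = 3). The groups overlapped, with the lowest and the highest share both in the resistant group, and the difference of 0.344 percentage points was smaller than either SD. It was -0.161 points without resistant replicate 2 and 0.975 points without resistant replicate 1, so its direction rested on single libraries. The macrophage markers took up 2.49, 3.79 and 3.76% of counts in the sensitive and 2.92, 2.80 and 3.15% in the resistant libraries, and their part in the lysosomal share was not tested.

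Most of that share came from few genes. Psap, Ctsb and Ctsd held 59.8% of the members' counts over the 6 libraries, and the 10 members with the highest FPKM held 82.2%. Without Psap, Ctsb and Ctsd, the other 47 members took up 2.91% ± 0.349 of counts in the sensitive and 3.03% ± 0.386 in the resistant group (SD, n = 3). Cysteine proteases were the largest role in 6 of 6 libraries, at 2.37 to 3.32% of all counts, followed by genes of sphingolipid breakdown in 5 of them. In sensitive replicate 2, the second place went to the aspartic and serine proteases, at 2.34% against 0.887 to 1.39% elsewhere. The transcription factors held 0.0175 to 0.0248%.

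**Figure D2:**
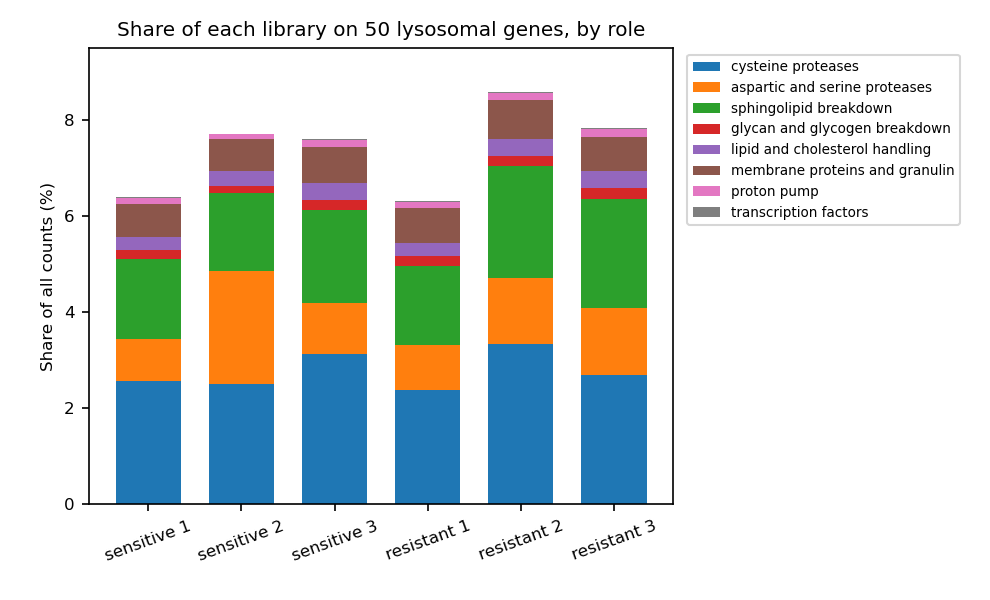
Share of all counts of each library (y axis, %) on the 50 lysosomal genes, stacked by role, for 3 sensitive and 3 resistant libraries (x axis). The totals lie between 6.32% (resistant replicate 1) and 8.59% (resistant replicate 2), and the aspartic and serine proteases are widest in sensitive replicate 2, at 2.34%.

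Levels of different genes were compared by FPKM, which divides by gene length. The members spanned a wide range, from 1.39 FPKM for Arsb, a sulfatase of glycosaminoglycan breakdown, to 6284 FPKM for Psap. The mean over the 6 libraries was above 1000 FPKM for 6 members, above 100 FPKM for 19 and under 10 FPKM for 7. Among all 60832 genes of the table Psap ranked 2, Ctsd 5, Ctsb 9, Ctss 18, Lgmn 24 and Ctsz 28. The order of the 50 genes was much the same from library to library. Spearman's rho of their FPKM was 0.972 to 0.996 for the 10 pairs without sensitive replicate 2 and 0.956 to 0.964 for the 5 pairs with it, as a description across genes that share each library.

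**Figure D3:**
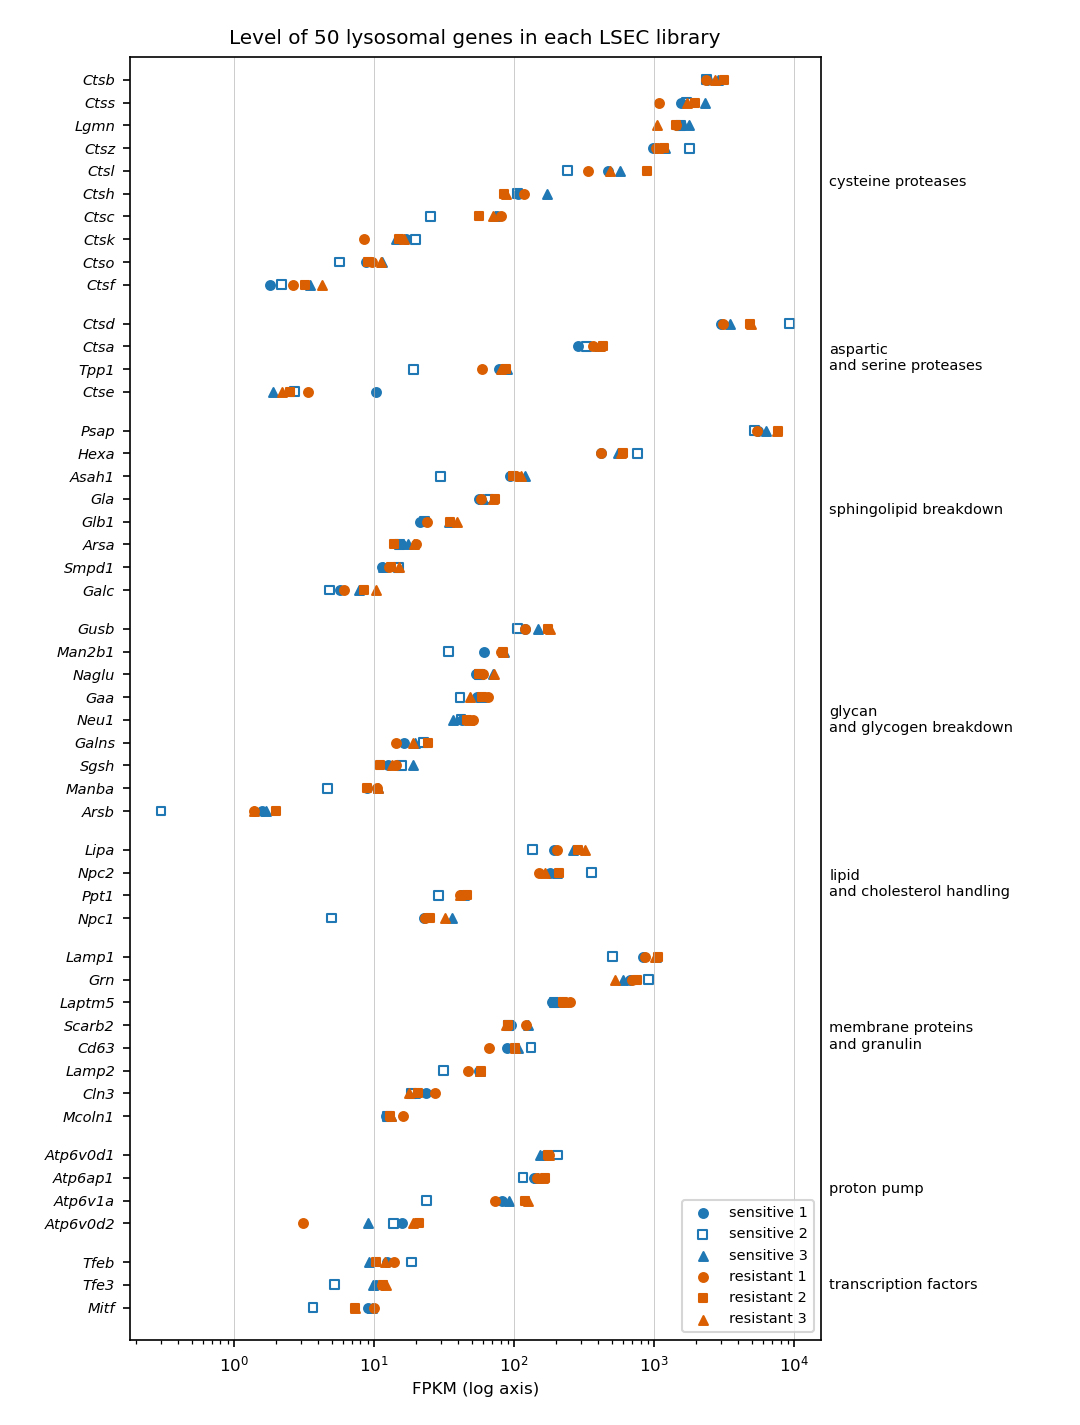
FPKM (x axis, log scale) of each of the 50 lysosomal genes (y axis, grouped by role and ordered by mean) in the 3 sensitive (blue) and 3 resistant (orange) libraries, with sensitive replicate 2 as an open square. Psap, Ctsd and Ctsb are on the right, Arsb is lowest, and the open squares lie outside the other 5 points for 30 members.

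In the comparison of the resistant with the sensitive group, 0 of the 50 members passed an adjusted threshold of 0.05 (Benjamini-Hochberg, edgeR's quasi-likelihood test), as did 0% of the 15474 genes. The members' adjusted p-values lay between 0.940 and 0.994. Without adjustment the same threshold was passed by 0 members, against 476 genes (3.08%), of which 83 (0.536%) were higher and 393 (2.54%) lower in the resistant group. DESeq2's Wald test called 0 members and 24 genes (0.155%) after adjustment, and 0 members and 732 genes (4.73%) before it. The log2 fold change was positive, that is higher in the resistant group, for 33 members and negative for 17, with a median of 0.11, while it was positive for 7855 and negative for 7619 of all tested genes, with a median of 0.01. It ranged from -0.89 (Ctse) to 0.68 (Atp6v1a). Members are not independent of each other, and no test was made of the list. The p-values measure the spread between these samples, since the sources used here do not say whether each library came from a separate mouse.

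Groups that did not overlap in CPM were found for 4 members (8.0%), against 8.39% of the genes tested. They were higher in all 3 resistant libraries for Tfe3, Neu1 and Laptm5 (5.01% of genes tested) and lower in all 3 for Lgmn (3.38%). For these 4 the two-sided exact permutation test gave p = 0.1, the smallest value that 3 against 3 libraries allow. Groups that do not overlap always give this value, so the test adds nothing to that selection. The share is near the background, and it rests on CPM scaled with library totals alone. For Neu1 the groups overlapped after normalization for composition.

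The range of differences covered by the intervals was also counted. The 95% interval of the log2 fold change lay within a 2-fold change in either direction for 27 of the 50 members (54%), against 37.7% of the genes tested. The members varied somewhat less between libraries of a group than all tested genes did. Their median biological coefficient of variation was 27.9% against 36.2%, and single members ranged from 21.6 to 55.3%. The 78 further lysosome genes described below were alike, at 28.4% and with 56.4% of intervals within a 2-fold change. Neither value was therefore particular to the members, and genes of like abundance were not compared.

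**Figure D4:**
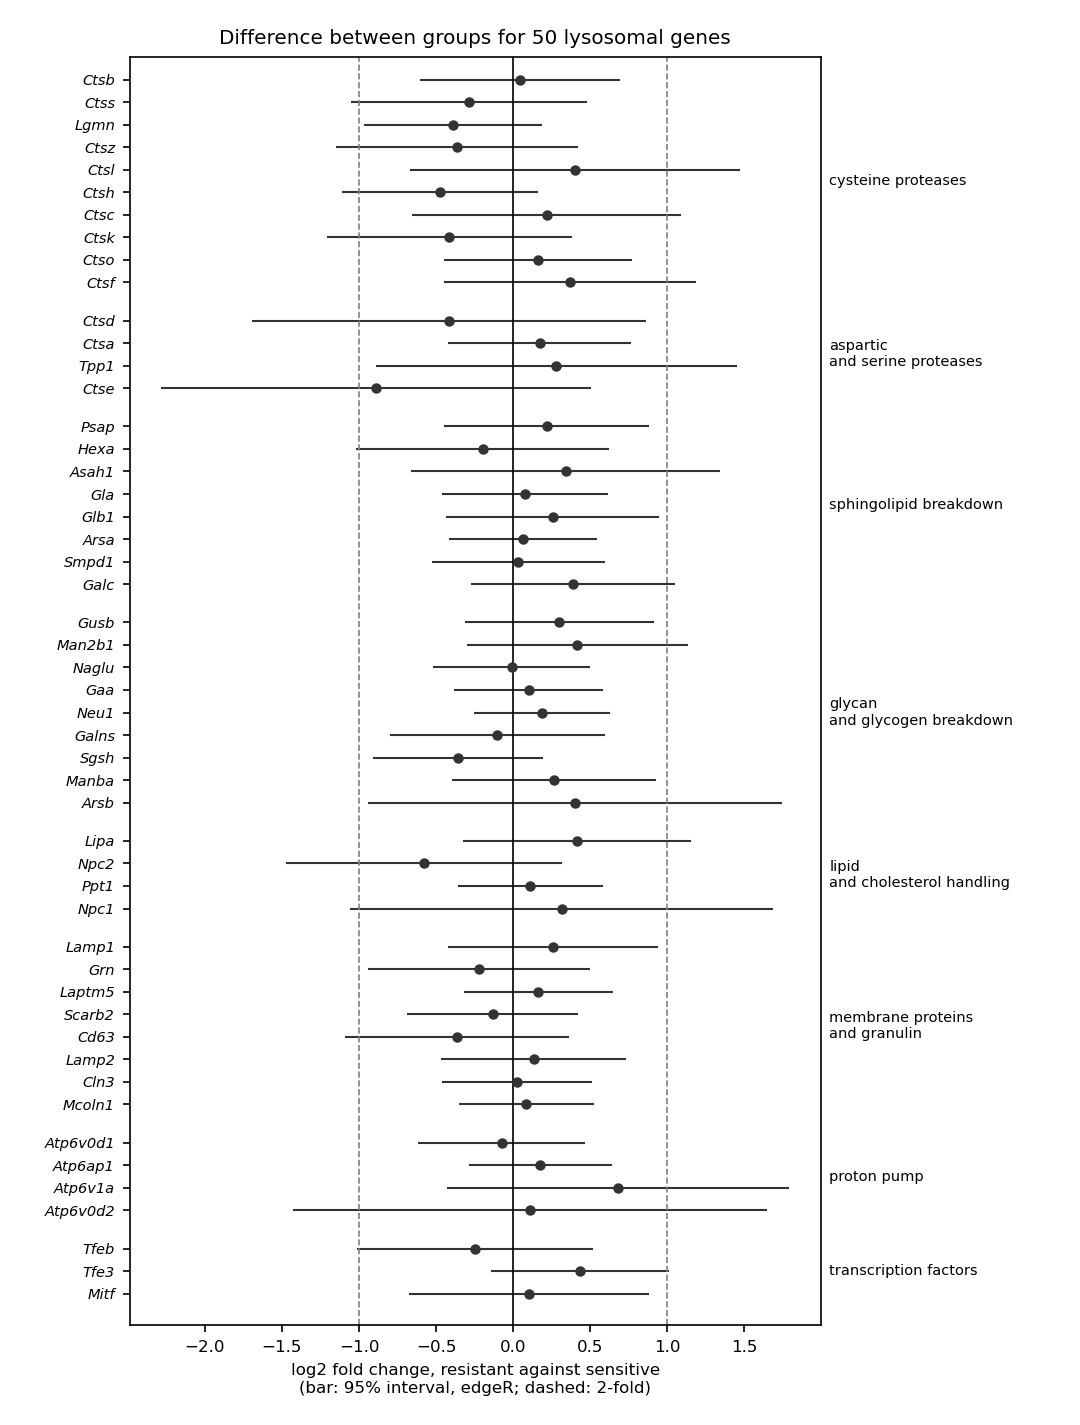
Log2 fold change of the resistant against the sensitive group (x axis) for each of the 50 lysosomal genes (y axis, by role), with 95% intervals from edgeR's fit of 3 against 3 libraries and dashed lines at a 2-fold change. All 50 intervals include 0, the points lie between -0.89 (Ctse) and 0.68 (Atp6v1a), and 27 intervals stay inside the dashed lines.

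The cysteine proteases were 10 members, 5 with a positive and 5 with a negative log2 fold change and a median of -0.12. Values of single libraries are given below in the order of replicates 1, 2 and 3, first for the sensitive and then for the resistant group, and fold changes are log2, resistant against sensitive, after normalization for composition. Ctsb (chr14:63122462-63145923, + strand), for cathepsin B, a protease with both endo- and exopeptidase activity, had 14369, 14378 and 17383 CPM and then 14164, 19034 and 16481 CPM. Its groups overlapped, and the fold change was 0.04 (SE 0.276, 95% interval -0.61 to 0.69). Ctss (chr3:95526786-95556403, + strand), for cathepsin S, which trims the invariant chain in antigen-presenting cells, had 2127, 2301 and 3144 CPM and then 1481, 2652 and 2339 CPM. Resistant replicate 1 was lowest and the others mixed, with a fold change of -0.29 (SE 0.325, 95% interval -1.05 to 0.48).

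Legumain, the asparaginyl endopeptidase that processes other lysosomal proteases, is encoded by Lgmn (chr12:102394084-102439813, - strand). Its libraries had 3612, 3595 and 4119 CPM and then 3318, 3313 and 2445 CPM. Every resistant library was below every sensitive library, with means of 3776 ± 298 and 3025 ± 502 CPM (SD, n = 3). The fold change was -0.39 (SE 0.247, 95% interval -0.97 to 0.19), and it stayed between -0.48 and -0.25 when single libraries were left out. Lgmn was the only member whose groups were apart in the lower direction.

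Ctsz (chr2:174427493-174439039, - strand), for the carboxypeptidase cathepsin Z, had 1405, 2560.0 and 1709 CPM and then 1481, 1695 and 1540.1 CPM. Sensitive replicate 2 alone was high, and the fold change of -0.37 (SE 0.332) was 0.014 without it. Ctsl (chr13:64359337-64370890, - strand), for the endopeptidase cathepsin L, had 3016, 1565 and 3690.0 CPM and then 2187, 5759 and 3144 CPM. Here resistant replicate 2 was high and sensitive replicate 2 low, and the fold change of 0.40 (SE 0.453) was -0.10 without resistant replicate 2. Ctsh (chr9:90054152-90076089, + strand), for the aminopeptidase cathepsin H, had the largest difference of this role, with 477, 477 and 773 CPM and then 531, 384 and 393 CPM. The groups overlapped through resistant replicate 1, with a fold change of -0.47 (SE 0.269, 95% interval -1.11 to 0.16). Cathepsins C, F, K and O were at 2.94 to 63.8 FPKM, and their fold changes lay between -0.41 (Ctsk) and 0.37 (Ctsf). Those of Ctsc and Ctso turned without sensitive replicate 2, from 0.22 to -0.11 and from 0.16 to -0.026.

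Among the 4 aspartic and serine proteases, 2 had a positive and 2 a negative fold change, with a median of -0.12. Ctsd (chr7:142375911-142388038, - strand), for cathepsin D, the main lysosomal aspartic protease, had 7085, 21728 and 8223 CPM and then 7354, 11365 and 11556 CPM. Sensitive replicate 2 had more Ctsd than any other library, and in that library alone Ctsd was above Psap by FPKM. With it the fold change was -0.41 (SE 0.541, 95% interval -1.69 to 0.86), and without it the sign turned, to 0.41. Ctse (chr1:131638306-131675505, + strand), for cathepsin E, an aspartic protease of endosomes, had 32.5, 8.58 and 5.98 CPM and then 10.7, 7.94 and 7.02 CPM. Sensitive replicate 1 alone was high, and the fold change of -0.89 (SE 0.592) became 0.084 without it. Ctsa, for protective protein cathepsin A, was at 371 FPKM and Tpp1, for tripeptidyl peptidase 1, at 69.0 FPKM, with fold changes of 0.17 and 0.28. Without sensitive replicate 2, in which Tpp1 was lowest, its fold change was -0.13.

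Of the 8 genes of sphingolipid breakdown, 7 had a positive fold change and 1 a negative one, with a median of 0.15, and 5 of the 8 intervals lay within a 2-fold change. Psap (chr10:60277627-60302597, + strand), for prosaposin, the precursor of the saposins that present sphingolipids to their hydrolases, had 15176, 14323 and 17281 CPM and then 14926, 21103 and 20642 CPM. Resistant replicates 2 and 3 were above every sensitive library and resistant replicate 1 was among them. The means were 15594 ± 1523 and 18891 ± 3441 CPM (SD, n = 3), and the fold change was 0.22 (SE 0.284, 95% interval -0.45 to 0.88). Hexa (chr9:59539540-59565109, + strand), for the alpha subunit of beta-hexosaminidase, which degrades the ganglioside GM2, had 827, 1510.1 and 1094 CPM and then 833, 1201 and 1159.5 CPM. It was highest in sensitive replicate 2, and its fold change of -0.20 (SE 0.348) was 0.15 without that library. Galc (chr12:98202294-98259459, - strand), for galactosylceramidase, had 84.7, 71.5 and 117 CPM and then 91.2, 125 and 154 CPM. This was the largest difference of the role, at 0.39 (SE 0.281), and the groups overlapped through sensitive replicate 3.

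Gla, Glb1, Arsa, Asah1 and Smpd1, for alpha-galactosidase A, beta-galactosidase, arylsulfatase A, acid ceramidase and acid sphingomyelinase, had fold changes of 0.03 (Smpd1) to 0.34 (Asah1). Asah1 was lowest in sensitive replicate 2, and its fold change was -0.031 without that library. Their mean levels were 13.2 (Smpd1) to 92.9 FPKM (Asah1).

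The glycan and glycogen enzymes were 9 members, 6 with a positive and 3 with a negative fold change and a median of 0.19, and 7 of their intervals lay within a 2-fold change. Neu1 (chr17:34931253-34935953, + strand), for the sialidase that works in a complex with cathepsin A, had 158, 156 and 136 CPM and then 191, 172 and 178 CPM. By CPM, which scale with library totals alone, every resistant library was above every sensitive one. The means were 150.1 ± 12.1 and 179.9 ± 9.72 CPM (SD, n = 3). The composition factor was 0.881 for sensitive replicate 2, and 0.986 and 1.016 for resistant replicates 2 and 3. Divided by these factors, sensitive replicate 2 lay above both, so the groups overlapped. The fold change was 0.19 (SE 0.188, 95% interval -0.25 to 0.63). Man2b1 (chr8:85083270-85098282, + strand), for lysosomal alpha-mannosidase, had 487, 275 and 677 CPM and then 646, 664 and 667 CPM. The resistant libraries lay close together, sensitive replicate 3 was above them and sensitive replicate 2 far below. That was the largest difference of this role, with a fold change of 0.42 (SE 0.305), which was 0.17 to 0.75 with single libraries left out. The most abundant gene of the role was Gusb, for beta-glucuronidase, at 141 FPKM, and Arsb, for arylsulfatase B, was the least abundant, with a fold change of 0.40 that was -0.041 without sensitive replicate 2. The glycogen-degrading acid alpha-glucosidase, Gaa, was at 54.5 FPKM with a fold change of 0.10, or 0.018 without that library. Galns and Naglu also turned without it, from -0.10 to 0.092 and from -0.01 to 0.014.

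For lipid and cholesterol handling there were 4 members, 3 with a positive and 1 with a negative fold change and a median of 0.21. Npc2 (chr12:84754562-84773152, - strand), for the soluble protein that carries cholesterol inside the lysosome, had 973, 1933 and 1094 CPM and then 825, 1146 and 907 CPM. Sensitive replicate 2 alone was high, and the fold change of -0.58 (SE 0.380) was -0.10 without it. Npc1, for the membrane protein that takes cholesterol over from NPC2, had 257, 56.4 and 406 CPM and then 261, 282 and 361 CPM, so the same library was the lowest for it and the fold change of 0.31 (SE 0.582) was -0.14 without it. Sensitive replicate 2 thus departed in opposite directions for these 2 genes, and without it both fold changes were negative. The departures of that library over all members are described further on. Lipa, for lysosomal acid lipase, was at 234 FPKM with a fold change of 0.41 and Ppt1, for palmitoyl-protein thioesterase 1, at 40.5 FPKM with 0.11. Without sensitive replicate 2 these were 0.25 and 0.00095.

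Among the 8 membrane proteins and granulin, 5 had a positive and 3 a negative fold change, and 7 intervals lay within a 2-fold change. Lamp1 (chr8:13159161-13175338, + strand), whose promoter is printed above, had 2233, 1355 and 2774 CPM and then 2307, 2831 and 2693 CPM. Only sensitive replicate 2 was low, and the fold change was 0.26 (SE 0.288, 95% interval -0.42 to 0.94). Without that library it was 0.061. Grn (chr11:102430315-102437048, + strand), for progranulin, a secreted protein that is cut into granulins in the lysosome, had 2322, 3153 and 2082 CPM and then 2428, 2616 and 1837 CPM. The groups overlapped throughout, with a fold change of -0.22 (SE 0.305) that was 0.064 without sensitive replicate 2.

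Laptm5 (chr4:130913125-130936141, + strand), for a lysosomal membrane protein of blood cells, had 707, 731 and 812 CPM and then 949, 847 and 855 CPM. All 3 resistant libraries were above the sensitive ones, with means of 749.8 ± 55.2 and 884 ± 56.9 CPM (SD, n = 3) and a fold change of 0.16 (SE 0.205, 95% interval -0.32 to 0.65). Cd63 (chr10:128900989-128912822, + strand), for a tetraspanin of late endosomes, had 328, 486 and 392 CPM and then 245, 374 and 374 CPM. Resistant replicate 1 was lowest and sensitive replicate 2 highest, and the fold change of -0.36 (SE 0.308) was -0.11 without sensitive replicate 2. Lamp2, Scarb2, Mcoln1 and Cln3, for the second LAMP glycoprotein, the receptor that sorts glucocerebrosidase, the calcium channel mucolipin 1 and battenin, had fold changes between -0.13 (Scarb2) and 0.13 (Lamp2). For Lamp2 it was -0.053 without sensitive replicate 2.

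Of the proton pump, 4 subunits were members, 3 with a positive and 1 with a negative fold change and a median of 0.14. Atp6v1a (chr16:44085402-44139705, - strand), for the catalytic A subunit, had 491, 144 and 552 CPM and then 439.7, 725 and 758 CPM. Resistant replicates 2 and 3 were highest, resistant replicate 1 was below 2 of the sensitive libraries, and sensitive replicate 2 was lowest. The fold change of 0.68 (SE 0.471, 95% interval -0.43 to 1.79) was the largest positive one of the 50 genes, and it was 0.30 without sensitive replicate 2. The d subunit has 2 genes. Atp6v0d1, for the widespread form, was at 176 FPKM and Atp6v0d2, for a form known from osteoclasts and macrophages, at 13.6 FPKM, and Atp6v0d1 was above Atp6v0d2 in 6 of 6 libraries, by 8.38 to 57.0 times. The highest ratio came from resistant replicate 1, in which Atp6v0d2 had 8.39 CPM against 24.7 to 56.4 CPM in the other libraries. Atp6ap1, for an accessory subunit, had a fold change of 0.18. That of Atp6v0d1 was -0.07, and 0.14 without sensitive replicate 2.

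The transcription factors were among the least abundant members. Tfeb (chr17:47737030-47792419, + strand) was at 12.7 FPKM, Tfe3 (chrX:7762560-7775202, + strand) at 10.1 FPKM and Mitf (chr6:97807052-98021349, + strand) at 7.85 FPKM. Tfe3 was above Mitf in 6 of 6 libraries, and Tfeb was above Tfe3 in 3 of them, so those neighbours in the order did not differ beyond their spread. Tfeb had 69.7, 104 and 52.0 CPM and then 78.9, 58.3 and 67.4 CPM. It was highest in sensitive replicate 2, and its fold change of -0.25 (SE 0.325) was 0.17 without that library. Mitf had 55.8, 22.7 and 60.1 CPM and then 62.3, 45.2 and 45.7 CPM. It was lowest in sensitive replicate 2, with a fold change of 0.10 (SE 0.330) that was -0.19 without it.

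Tfe3 had 96.3, 48.1 and 91.2 CPM and then 106, 107 and 114 CPM. Every resistant library was above every sensitive library. The means were 78.5 ± 26.5 and 109 ± 4.03 CPM (SD, n = 3), and the fold change was 0.43 (SE 0.244, 95% interval -0.14 to 1.01). It was 0.22 without sensitive replicate 2, so that library moved its size but not its direction.

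Sensitive replicate 2 departed from the other libraries in both directions. It was the lowest of the 6 libraries for 21 members and the highest for 9, against 7378 and 4021 of the 15474 genes. It was thus at either end for 60% of the members and 73.7% of all genes. For the 78 further lysosome genes described below, it was at either end for 84.6%. Relative to the median of the other 5 libraries its CPM was 0.201 times for Npc1, 0.230 for Arsb, 0.237 for Tpp1, 0.261 for Atp6v1a and 0.290 for Asah1. In the other direction it was 2.64 times for Ctsd, 1.99 for Npc2, 1.66 for Ctsz and 1.54 for Tfeb. A range of at least 2-fold over the libraries was found for 24 members with this library and for 6 without it. Those 6 were Ctsf, Ctsh, Ctsl, Ctss, Ctse and Atp6v0d2.

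These ratios went with gene length. Over the 50 members the Spearman correlation of the ratio with the length used for FPKM was -0.588, and over all 15474 genes it was -0.360, both as descriptions across genes of the same libraries. For the 25 longer members the median log2 ratio was -0.77, and sensitive replicate 2 was lowest for 16 and highest for 2 of them. For the 25 shorter members it was 0.11, with 5 lowest and 7 highest. The part that length or RNA quality plays in these values was not tested.

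**Figure D5:**
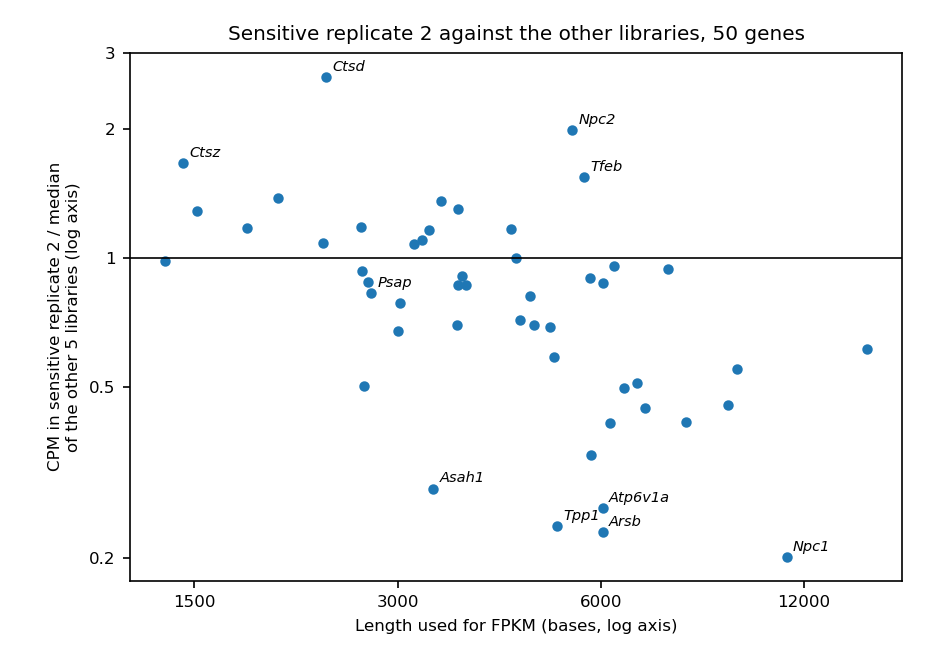
CPM in sensitive replicate 2 divided by the median of the other 5 libraries (y axis, log scale) against the length used for FPKM (x axis, bases, log scale), with 1 point for each of the 50 lysosomal genes and a line at equal levels. The longer genes lie lower (Spearman -0.588), from 2.64 for Ctsd to 0.201 for Npc1.

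Leaving sensitive replicate 2 out narrowed the estimates and called no member after adjustment. The 95% interval then lay within a 2-fold change for 40 of the 50 members, against 55.3% of all genes tested in that fit. The counts of positive and negative fold changes were again 33 and 17, but 16 members (32%) changed direction, near the 32.7% of all genes that did. By role, the median log2 fold change went from -0.12 to 0.04 for the aspartic and serine proteases, from 0.19 to 0.02 for the glycan and glycogen enzymes and from 0.21 to -0.05 for lipid and cholesterol handling. The median was 0.06, and the smallest adjusted p-value of a member was 0.984 in edgeR's quasi-likelihood test.

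The list was then set beside 83 further lysosome genes: other enzymes, other membrane proteins, sorting factors, pump subunits, regulators and cystatins. Of these, 82 were in the table and 78 passed the filter. Adjusted p-values under 0.05 were reached by 0 of the 78 in edgeR's test. Unadjusted ones were reached by 1 of the 78, against 476 of the 15474 genes tested (3.08%). Groups did not overlap in CPM for 6 of the 78, against 8.39% of the genes tested. The fold change of these genes was positive for 47 and negative for 31. They took up 1.79% ± 0.224 of counts in the sensitive and 1.95% ± 0.0601 in the resistant group (SD, n = 3).

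The gene past the unadjusted threshold was Slc11a1, for the metal transporter NRAMP1 of phagosomes and lysosomes. It had 879, 461 and 804 CPM and then 1235, 1041 and 1107 CPM, with every resistant library above every sensitive one. Its fold change was 0.61 (SE 0.247), with an adjusted p-value of 0.940 in edgeR's quasi-likelihood test. Without sensitive replicate 2 it was 0.42 (SE 0.144). In the other membrane proteins 11 of 13 genes had a positive fold change (median 0.33) and in the sorting factors 9 of 10, while in the further pump subunits 5 of 14 and in the cystatins 1 of 5 did. Sensitive replicate 2 was the lowest library for 11 of these 13 membrane genes and 8 of these 10 sorting factors. Without it the counts with a positive fold change were 10 of 13 membrane genes (median 0.08), 6 of 10 sorting factors, 12 of 14 pump subunits and 1 of 5 cystatins. The highest levels were those of Cd68, the macrophage sialomucin, at 1007 FPKM, and of Cstb, for the protease inhibitor cystatin B, at 572 FPKM. Both were below the 6 leading members of the list. E-box letters were found in the promoter windows of 14 of 61 of these genes (23.0%), and TCACGTGA in 8 (13.1%).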

How the data were processed

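The authors deposited a table of raw counts per gene for the 6 libraries, with FPKM values beside them (each count over its library's total and 1 length per gene). The submitters' notes name HISAT2 2.0.5, featureCounts 1.5.0-p3, DESeq2 1.16.1 and the build mm9, with no role for it. Whether counting used strand is not given in the sources used here, and poly(A) selection as well as depletion of ribosomal RNA is named for the libraries. A second deposited table of the authors' own comparison (group means, fold changes and p-values) was not used. The table holds no coordinates, and those printed for genes come from GENCODE M21 (GRCm38) through the Ensembl identifiers (96.2% of tested genes, 50 of 50 members).

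Samples were grouped by their titles. In R 4.3.3 with edgeR 4.0.16, counts were filtered with filterByExpr, normalized by TMM and compared with the robust quasi-likelihood test without covariates, two-sided, with Benjamini-Hochberg adjustment at 0.05 over all genes tested. SEs are those implied by the F statistic, and 95% intervals use the total degrees of freedom. CPM are counts divided by the library total on genes. Alternatives used DESeq2 1.42.0, limma 3.58.1, log2(FPKM + 1), other filters and scalings, a replicate block and each library left out. The fits were tested on simulated data. These intervals include the spread between libraries, while the floor of 3 counts covers counting error only. No 2 libraries of a group agreed within sampling noise (chi-square per gene of 36.7 or more).

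Described in full were the 10 members with the highest mean FPKM, the 3 transcription factors, members with an unadjusted p-value under 0.05, and in each role the member with the largest absolute log2 fold change among those with an average log2 CPM of at least 3. Of other lysosome genes, those past the unadjusted threshold and the most abundant were named. Neu1, Laptm5, Npc1 and Atp6v0d2 were given in full after their values were seen. The members and lists were chosen with earlier results of these data known.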

Additional observations from a re-analysis of the deposited data

How the results depend on the processing

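After adjustment at 0.05, edgeR's test called 0 genes. The count was 24 with DESeq2's Wald test and 2 with no filter on low counts, and 0 members were among the genes called in any alternative. With single libraries left out it stayed at 0. The smallest adjusted p-value of a named member over all alternatives was 0.659. The members' median log2 fold change was 0.11, and 0.08 to 0.17 with other scalings, filters and tools. With 1 library left out it was 0.06 to 0.17. The difference in the share of counts was 0.344 points and -0.161 to 0.975 points with 1 library left out. An alternative chosen after seeing the data counted members at an unadjusted p-value under 0.05, of which there were 0, and 0 to 2 with 1 library left out. Without sensitive replicate 2 this was Neu1, 1 of 50 members against 632 of 15965 genes (3.96%), which is below the share of all genes. Without sensitive replicate 3 they were Man2b1 and Ctse, and the share of all genes in that fit is not given here. Of 280 values of 20 named members over the alternatives, 269 kept their direction. The 11 that turned all came from leaving out 1 library, with ranges of -0.73 to 0.41 (Ctsd), -0.086 to 0.18 (Ctsb), -0.58 to 0.014 (Ctsz), -0.35 to 0.064 (Grn), -0.42 to 0.15 (Hexa), -0.46 to 0.17 (Tfeb), -0.10 to 0.69 (Ctsl), -0.19 to 0.35 (Mitf) and -1.27 to 0.084 (Ctse). The causes were not tested. The counts of each list without sensitive replicate 2 were also added after seeing the data. Of all 50 members, 25 kept their direction in all 14 alternatives.

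The replicate number as a block gave 0 members and 0 genes with an adjusted p-value under 0.05 and a median of 0.11. Same-numbered libraries shared little beyond the number, with correlations of their deviations of -0.00093, 0.034 and 0.194. At 3 against 3 libraries and a common biological coefficient of variation of 42.2%, differences could be missed for many genes, also above 2-fold. The 11 neutrophil markers had a median log2 fold change of -1.82 and the 13 pan-endothelial markers -1.20, and 0 were called after adjustment.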

Other observations

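Marker genes of other cell types were described beside the lysosomal genes. Of the 18 macrophage and Kupffer cell markers, 9 had a positive and 9 a negative log2 fold change, and the list took up 3.35% ± 0.745 of counts in the sensitive and 2.96% ± 0.179 in the resistant group (SD, n = 3). The 11 neutrophil markers all had a negative fold change, and took up 0.416, 0.633 and 0.0278% of counts in sensitive replicates 1, 2 and 3 and 0.174, 0.0855 and 0.0197% in resistant replicates 1, 2 and 3. The groups overlapped through sensitive replicate 3, and edgeR's test called 0 of these genes at an adjusted threshold of 0.05 and 2 at an unadjusted one. Of the 13 pan-endothelial markers, 12 had a negative fold change, 5 passed the unadjusted threshold, all lower (2.54% of all genes tested), and 5 were lower in every resistant than in every sensitive library (3.38%). After adjustment 0 were called. A negative fold change was also seen for 11 of 12 LSEC markers, and a positive one for 9 of 9 hepatocyte markers and 6 of 7 stellate and fibroblast markers that passed the filter. Without sensitive replicate 2, it was negative for 13 of 13 pan-endothelial, 12 of 12 LSEC and 10 of 11 neutrophil markers. Resistant replicate 2 held the lowest pan-endothelial share, 0.0082% against 0.0285 to 0.0528% in the other libraries. It also held the highest lysosomal, hepatocyte (0.0202%) and stellate and fibroblast (0.0362%) shares. The highest pan-endothelial share, in sensitive replicate 3, went with a lysosomal share of 7.60%. A link between these shares was not tested.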
